A study of Mus musculus with 6 samples.

Results

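The 10 genes described here encode the interleukin 6 (IL-6) family cytokines IL-6, IL-11, leukaemia inhibitory factor (LIF), oncostatin M (OSM) and cardiotrophin-like cytokine factor 1 (CLCF1), the receptor chains that bind them, and the feedback inhibitor SOCS3. They were chosen by name from the known biology of the family by a rule that uses no measured value, though with earlier results of these data known, and all 10 were found among the 56980 genes of the count table. RNA-Seq was done on bone marrow mesenchymal stromal cells (BM MSCs), which were cultured for 7 days from flushed marrow, with no sorting step described. All the animals were female mice that underwent ovariectomy (OVX) at 8 weeks of age, a model of estrogen deficiency, and were pretreated with oral antibiotics before fecal microbiota transplantation (FMT). Over 8 weeks, the TranspCtrl group received microbiota from sedentary OVX donors and the TranspExer group received microbiota from exercised OVX donors, with 3 samples in each group. The labels do not say whether each sample came from a separate mouse or from pooled mice, so p-values measure the spread between these samples, which may be partly technical. The comparison addresses how microbiota from exercised donors changes the transcripts of marrow stromal cells.

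IL-6 family cytokines share the signal-transducing receptor chain gp130, which is encoded by *Il6st*. IL-6 and IL-11 first bind their own alpha chains, IL6RA and IL11RA1, and then assemble gp130. LIF pairs gp130 with LIFR, mouse OSM acts mainly through gp130 with OSMR, and CLCF1 uses gp130, LIFR and the alpha chain CNTFR. The receptors carry JAK kinases that activate STAT3, and STAT3 induces *Socs3*, whose product binds gp130 and shuts the signal down. In bone, these cytokines act on cells of the osteoblast lineage and on their support of osteoclasts, and IL-6 has long been studied in bone loss after estrogen withdrawal.

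Total counts ranged from 17647662 to 21319213 per sample, so that 3 counts, the detection floor used here, equalled 0.14 to 0.174 CPM (counts scaled to a common library size by TMM), a limit that covers counting error only. TranspCtrl replicate 1 stood apart from the other TranspCtrl samples on both leading principal components. On the first (71.4% of the variance) it scored -61.2 against -30.9 and -32.5, with TranspExer at 41 to 42.4. On the second (11.9% of the variance) it scored 29.7 against -22.7 and -19. Its distance in log2 CPM over the tested genes was 62.8 and 60.2 to TranspCtrl replicates 2 and 3. Those 2 samples were 37 apart and 82.7 to 83.9 from the TranspExer samples. All 10 stromal markers passed the low-count filter, and their summed level was 11800 to 19600 CPM in TranspCtrl and 12800 to 14100 CPM in TranspExer. Passing the filter does not check the stromal label, since the markers of every other cell type listed, except the erythroid ones, passed it too. The samples also carried markers of other marrow cells. The summed level in TranspCtrl and TranspExer was 3050 to 3360 and 3410 to 3540 CPM for 7 macrophage markers, 2380 to 3560 and 3240 to 3620 CPM for 7 neutrophil markers, and 1720 to 2050 and 556 to 589 CPM for 7 B and plasma cell markers. It was 190 to 233 and 593 to 651 CPM for 8 endothelial markers, 325 to 471 and 1920 to 2040 CPM for 4 early myeloid markers, and 834 to 987 and 2630 to 3070 CPM for 5 adipocyte markers. It was 347 to 474 and 123 to 133 CPM for 4 osteoclast markers, 257 to 316 and 474 to 506 CPM for 5 megakaryocyte markers, 50.9 to 70.9 and 155 to 171 CPM for 6 eosinophil, basophil and mast cell markers, and 55.2 to 57.8 and 75.9 to 81.5 CPM for 6 T and NK cell markers. Most of the adipocyte sum came from *Lpl* (806 CPM in TranspCtrl and 2663 CPM in TranspExer on average). *Adipoq* was at 0.813 and 1.02 CPM and *Plin1* at 0.0465 and 1.61 CPM. Most of the T and NK cell sum came from *Cd4* (41.0 and 52.4 CPM). The 5 erythroid markers summed to at most 0.372 CPM in any sample. Among them, *Hbb-bs*, *Klf1* and *Slc4a1* had at most 3 counts in every sample. By edgeR's adjusted p-value (under 0.05), 32.2% of all tested genes passed, 16.6% higher and 15.5% lower. Among the markers, 8 of 8 endothelial, 4 of 4 early myeloid, 4 of 5 adipocyte, 3 of 5 megakaryocyte and 5 of 6 eosinophil, basophil and mast cell markers rose. Of the B and plasma cell markers 6 of 7 fell, and of the osteoclast markers 4 of 4. Of the T and NK cell markers 2 of 6 rose, a share of 33.3% that was near that of all tested genes. Macrophage (2 higher, 1 lower of 7) and neutrophil markers (1 higher, 1 lower of 7, a share of 28.6%) moved both ways. The markers of these lists moved along with the results below, and their part in those results was not tested. In such bulk samples, fewer cells of a type and less RNA per cell cannot be told apart.

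In the TranspExer group, transcripts of *Lif*, *Osm*, *Il6st*, *Osmr* and *Socs3* were lower and those of *Clcf1* were higher, whereas *Il6*, *Il6ra* and *Lifr* did not pass the test and *Il11* was too scarce to be tested. The test was the quasi-likelihood test of edgeR on 15190 genes, and a gene passed at a Benjamini-Hochberg adjusted p-value under 0.05. Of the 9 family genes that passed the low-count filter, 5 fell and 1 rose, which is 66.7%, where 32.2% of all tested genes passed, 15.5% lower and 16.6% higher. Past a fold change of 2 as well, *Socs3* was the only family gene called, and it was lower. Past both thresholds 8.78% of all tested genes were called, 5.28% lower and 3.5% higher. The median log2 fold change (TranspExer over TranspCtrl) was -0.40 over the 9 family genes and -0.02 over all tested genes. By role, 2 of 4 tested ligands fell and 1 rose, and 2 of 4 receptor chains fell. In 6 of the 9 genes the TranspCtrl and TranspExer values were fully separate, 5 lower and 1 higher, which is 66.7%, and this held for 52.4% of all tested genes, 25.1% lower and 27.2% higher.

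**Figure D1:**
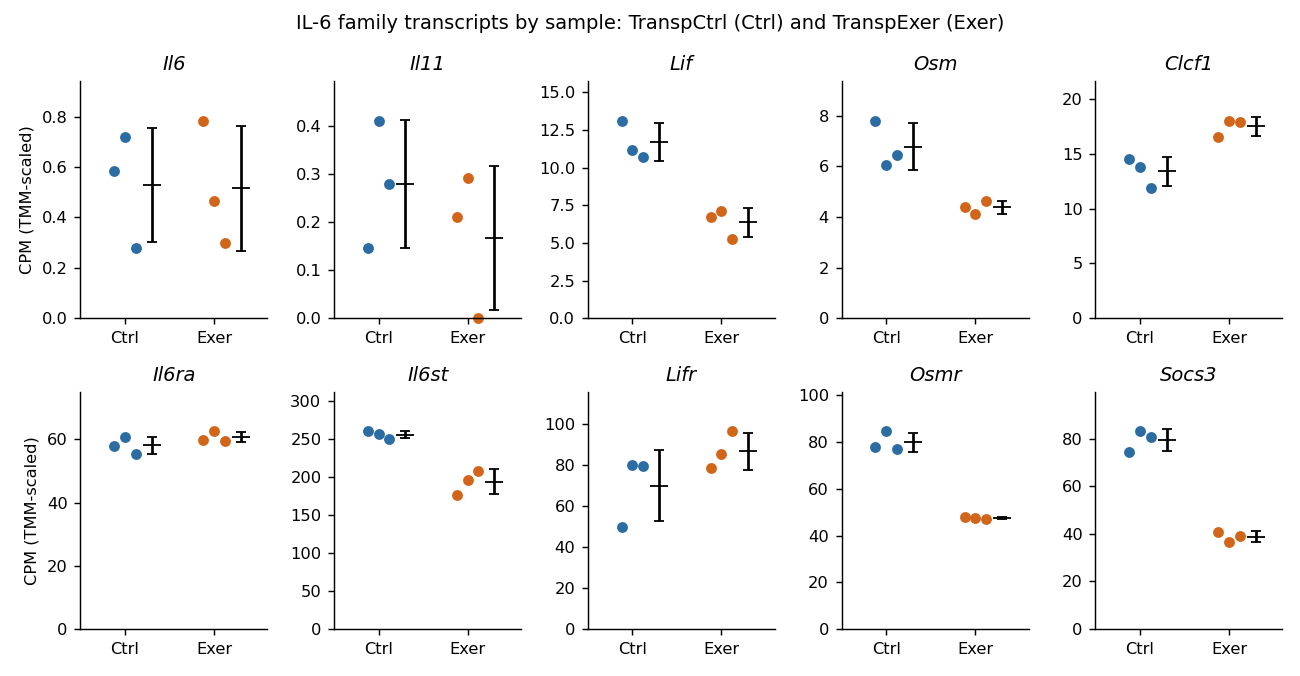
Level of each of the 10 IL-6 family genes in CPM (counts scaled to a common library size by TMM, linear axes from 0) in the 3 TranspCtrl (Ctrl) and 3 TranspExer (Exer) samples, where points are samples and bars are the mean ± SD. Points of the groups are separate for *Lif*, *Osm*, *Clcf1*, *Il6st*, *Osmr* and *Socs3*, and they overlap for *Il6*, *Il11*, *Il6ra* and *Lifr*.

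*Socs3* encodes the inhibitor that binds gp130 and JAK kinases, and it had the largest change of the 9 family genes tested. Its level was 74.2, 83.1 and 80.9 CPM in TranspCtrl replicates 1 to 3 and 40.8, 36.3 and 39.2 CPM in TranspExer replicates 1 to 3. Every TranspExer sample lay below every TranspCtrl sample, and the gap between the groups was wider than the range within either. The mean was 79.4 ± 4.61 CPM in TranspCtrl against 38.8 ± 2.27 CPM in TranspExer (± SD, n = 3 each), and the log2 fold change was -1.03 ± 0.08 (SE, edgeR adjusted p = 0.000131). The fold (TranspExer over TranspCtrl) was 0.489 with a 95% interval of 0.428 to 0.557, so the interval also held changes smaller than the 2-fold threshold. Without TranspCtrl replicate 2 or without TranspExer replicate 2, the log2 fold change was -0.997 and the gene no longer passed the fold threshold, while its adjusted p-value stayed at 0.00217 or less with any sample left out.

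*Socs3* lies at chr11:117966079-117970047 on the minus strand (GRCm38). Because the gene is known as a STAT3 target, the promoter windows of the family (250 bases before to 50 after each RefSeq start, GRCm38.p6) were searched on both strands for a STAT-type motif (TTCNNNGAA), an NF-kB-type motif (GGGNN followed directly by TTTCC) and an AP-1-type motif (TGANTCA). Windows were at hand for 8 of the 10 genes, 10 windows in all, and none for *Osm* and *Clcf1*. The STAT-type motif was present in 8.3% of all 32851 windows, the NF-kB-type motif in 1.63% and the AP-1-type motif in 7.81%. Among the family windows, the STAT-type letters were found in that of *Socs3*, at position -154 from the RefSeq start. In GENCODE M21 the gene extends upstream of this start, so the window lies within the annotated gene. Of the 250 bases before the start, 77 are in exons of the gene, and the match is outside them. The stretch from -250 to -86 (chr11:117969452-117969616, minus strand) is shown because it holds this match, in capitals, in the gene with the largest change:
Socs3: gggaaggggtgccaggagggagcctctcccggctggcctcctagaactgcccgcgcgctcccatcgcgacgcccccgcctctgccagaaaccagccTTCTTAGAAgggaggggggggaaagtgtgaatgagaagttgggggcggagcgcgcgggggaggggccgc
A match of letters is a description of the window and not evidence of binding.

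Among the ligands, *Lif* and *Osm* fell. The product of *Lif* is a cytokine made by stromal and many other cells, and OSM is made mainly by macrophages, neutrophils and T cells. *Lif* was at 13.1, 11.2 and 10.7 CPM in TranspCtrl replicates 1 to 3 and at 6.75, 7.09 and 5.27 CPM in TranspExer replicates 1 to 3. All 3 TranspExer samples were below the lowest TranspCtrl sample. The mean of *Lif* was 11.7 ± 1.27 CPM in TranspCtrl against 6.37 ± 0.97 CPM in TranspExer (± SD, n = 3 each), and the log2 fold change was -0.88 ± 0.15 (SE, edgeR adjusted p = 0.00418), or 1.84-fold lower. The adjusted p-value of *Lif* stayed between 0.000548 and 0.021 with each sample left out in turn.

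*Osm* lies next to *Lif* on chromosome 11, at chr11:4236420-4241026 against chr11:4257557-4272514, both on the plus strand and with no exons in common with another gene. Its level was 7.81, 6.06 and 6.46 CPM in TranspCtrl replicates 1 to 3 and 4.39, 4.13 and 4.62 CPM in TranspExer replicates 1 to 3. The groups were separate, with TranspCtrl replicate 1 the highest, as it was for *Lif*. The mean of *Osm* was 6.78 ± 0.919 CPM in TranspCtrl against 4.38 ± 0.247 CPM in TranspExer (± SD, n = 3 each), and the log2 fold change was -0.63 ± 0.15 (SE, edgeR adjusted p = 0.0164). Without TranspExer replicate 1, 2 or 3, the adjusted p-value of *Osm* was 0.0606, 0.0699 or 0.051, so the call needed all 3 TranspExer samples. The markers of the cell types known to make OSM moved in both directions, and their part in the fall of *Osm* was not tested. Among 7 macrophage markers *Cd68* (log2 fold change 0.78) and *Mertk* (0.71) rose and *Mrc1* (-0.33) fell. Among 6 T and NK cell markers *Cd4* (0.35) and *Nkg7* (1.36) rose, whereas the T cell genes *Cd3e*, *Cd3g* and *Cd8a* had log2 fold changes of -0.09, -0.49 and -0.92 and did not pass the test (edgeR adjusted p = 0.900, 0.180 and 0.0968). The summed level of neutrophil markers overlapped between the groups. These marker genes, and the stromal ones named below, are named after their values were seen.

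*Clcf1*, at chr19:4214238-4223490, encodes the ligand that acts through CNTFR, LIFR and gp130, and it was the family gene that rose. It was at 14.5, 13.8 and 11.9 CPM in TranspCtrl replicates 1 to 3 and at 16.5, 18.02 and 17.9 CPM in TranspExer replicates 1 to 3. The groups did not overlap, and the distance between the nearest samples was smaller than the range within TranspCtrl. The mean was 13.4 ± 1.34 CPM in TranspCtrl against 17.5 ± 0.835 CPM in TranspExer (± SD, n = 3 each), and the log2 fold change was 0.39 ± 0.11 (SE, edgeR adjusted p = 0.0295). This call was lost with upper-quartile scaling (0.31, adjusted p = 0.0847), with scaling by library size alone (0.30, adjusted p = 0.0949), and without TranspCtrl replicate 2 or 3 or any of the TranspExer samples, where the adjusted p-value reached 0.117. Another gene model shares exons with *Clcf1* on the same strand and had 0 to 19 counts per sample, so reads of the pair may have been split between them.

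*Il6* itself, the ligand after which the family is named, was close to the detection floor. It had 12, 14 and 6 counts in TranspCtrl replicates 1 to 3 and 15, 8 and 6 counts in TranspExer replicates 1 to 3. The counts of the groups covered the same range. The mean was 0.528 ± 0.226 CPM in TranspCtrl against 0.516 ± 0.247 CPM in TranspExer (± SD, n = 3 each), and the log2 fold change was -0.02 ± 0.49 (SE, edgeR adjusted p = 0.974). The 95% interval of the fold ran from 0.45 to 2.15, so a change of about the size seen for *Lif* or *Socs3*, in either direction, was not detectable at this depth. *Il11*, a ligand known in marrow for its effects on megakaryocytes and bone, had 3, 8 and 6 counts in TranspCtrl and 4, 5 and 0 counts in TranspExer. It did not pass the low-count filter, and the exact two-sided permutation test of its CPM gave p = 0.5, where 0.1 is the smallest p-value that 3 samples against 3 allow.

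*Il6* lies at chr5:30013114-30019981 on the plus strand. Its promoter window held an NF-kB-type match at position -44 and an AP-1-type match at position -249, which did not overlap each other, and it is printed up to the start (chr5:30012864-30013113) because it was the only family window with the NF-kB-type letters, which are in capitals together with the AP-1-type letters:
Il6: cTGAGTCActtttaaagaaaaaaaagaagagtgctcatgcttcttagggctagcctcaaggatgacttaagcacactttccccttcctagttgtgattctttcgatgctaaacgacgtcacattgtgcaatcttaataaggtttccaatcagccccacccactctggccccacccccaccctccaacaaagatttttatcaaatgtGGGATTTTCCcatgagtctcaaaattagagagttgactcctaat
The 2 fallen genes *Lif* and *Osmr* each held 1 AP-1-type match, shown with its surrounding bases to set the matched letters side by side, at position -228 before the start of *Lif* (chr11:4257340-4257346) and at position 4 after the RefSeq start of *Osmr* (chr15:6874304-6874310, minus strand), within an exon of the gene in GENCODE M21:
Lif: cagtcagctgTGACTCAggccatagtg
Osmr: gccccgtagtTGATTCAtagctggggc
An AP-1-type match was also present in a window of *Il11*, at position -98. The windows of *Il6ra*, *Il6st* and *Lifr* held none of the 3 sets of letters.

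Among the receptor chains, *Osmr* and the shared chain *Il6st* fell. *Osmr*, at chr15:6813577-6874969, encodes the chain that with gp130 forms the OSM receptor of stromal and osteoblast lineage cells. It was at 77.9, 84.7 and 77.0 CPM in TranspCtrl replicates 1 to 3 and at 48.1, 47.4 and 47.2 CPM in TranspExer replicates 1 to 3. The TranspExer samples lay within 1 CPM of each other and far below all TranspCtrl samples. The mean was 79.9 ± 4.16 CPM in TranspCtrl against 47.6 ± 0.488 CPM in TranspExer (± SD, n = 3 each), and the log2 fold change was -0.75 ± 0.07 (SE, edgeR adjusted p = 0.000332), or 1.68-fold lower. The adjusted p-value was at most 0.0042 with any sample left out.

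*Il6st*, at chr13:112464070-112510086, was at 259.7, 256.1 and 249.9 CPM in TranspCtrl replicates 1 to 3 and at 175.9, 196.0 and 208.0 CPM in TranspExer replicates 1 to 3. Here the TranspCtrl samples were the closer to each other, and the groups did not overlap. The mean was 255 ± 4.96 CPM in TranspCtrl against 193 ± 16.2 CPM in TranspExer (± SD, n = 3 each), and the log2 fold change was -0.40 ± 0.09 (SE, edgeR adjusted p = 0.0106), or 1.32-fold lower. Without TranspExer replicate 2, the adjusted p-value was 0.0503. Stromal markers moved with *Osmr* and *Il6st*, since 6 of the 10 fell and 2, *Pdgfrb* and *Vcam1*, rose. Among those that fell without overlap between the groups, *Pdgfra* had a log2 fold change of -1.003, *Nt5e* of -1.08, *Thy1* of -0.71 and *Cxcl12* of -0.46. The summed level of the list overlapped between the groups. Most of it came from *Col1a1* and *Col1a2* (8043 and 6504 CPM in TranspCtrl on average), which were lowest within TranspCtrl in replicate 1. The part of the stromal shift in the fall of both receptor chains was not tested.

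The other receptor chains did not pass the test. *Il6ra*, at chr3:89864059-89913196, encodes the chain that binds IL-6 and is known mainly from myeloid cells, hepatocytes and some T cells. It was at 58.1, 60.9 and 55.4 CPM in TranspCtrl and at 59.9, 62.6 and 59.7 CPM in TranspExer, which overlapped. Its log2 fold change was 0.06 ± 0.07 (SE, edgeR adjusted p = 0.523), and the 95% interval of the fold, 0.931 to 1.17, allowed at most a small change in either direction. An antisense gene model that shares bases with its exons had at most 2 counts in any sample.

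*Lifr*, at chr15:7090614-7197489, encodes the chain that LIF and CLCF1 share with gp130. It was at 49.8, 80.1 and 79.6 CPM in TranspCtrl replicates 1 to 3 and at 78.7, 85.3 and 96.5 CPM in TranspExer replicates 1 to 3. The groups overlapped, and TranspCtrl replicate 1 stood well below the other samples of both groups. The same sample had the lowest summed level of stromal markers, 11800 CPM, and the part of this in the result was not tested. The log2 fold change of *Lifr* was 0.31 ± 0.18 (SE, edgeR adjusted p = 0.207) with this sample and 0.12 (adjusted p = 0.226) without it.

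**Figure D2:**
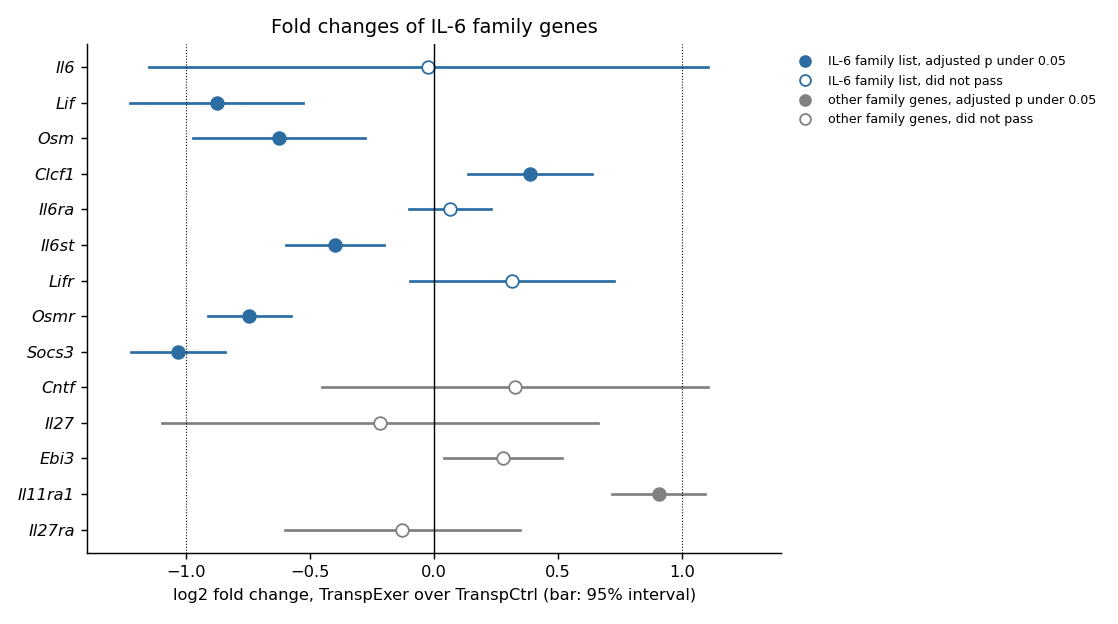
Log2 fold change (TranspExer over TranspCtrl, linear axis, edgeR) with its 95% interval for the 9 IL-6 family genes tested (blue) and for 5 other ligands and receptors of the family that passed the low-count filter (grey), where filled points have an adjusted p-value under 0.05 and dotted lines mark a fold of 2. *Socs3* at -1.03 lies past the dotted line, *Il11ra1* at 0.91 lies farthest to the right, and the interval of *Il6* spans both lines.

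Levels were then compared between genes per length, as RPKM, the CPM divided by the length of the union of exons in kilobases. In TranspCtrl the order was led by *Socs3* (27.5 ± 1.59 RPKM, SD, n = 3) and *Il6st* (23.0 ± 0.447 RPKM). Next came *Il6ra*, *Osmr* and *Lifr* at 6.72, 6.59 and 6.48 RPKM, whose ranges overlapped, then *Clcf1*, *Osm* and *Lif* at 3.52, 2.98 and 2.69 RPKM, whose ranges also overlapped from neighbour to neighbour, and last *Il6* and *Il11* at 0.217 and 0.134 RPKM. By their means, every receptor chain had more transcript than any ligand in TranspCtrl. In TranspExer the order was *Il6st* (17.4 ± 1.46 RPKM), *Socs3* (13.4 ± 0.785 RPKM), *Lifr* (8.06 RPKM), *Il6ra* (7.03 RPKM), *Clcf1* (4.6 RPKM), *Osmr* (3.93 RPKM), *Osm* (1.93 RPKM), *Lif* (1.46 RPKM), *Il6* (0.212 RPKM) and *Il11* (0.0801 RPKM). Neighbours in this order did not overlap down to *Lif*, and *Il6* and *Il11* overlapped. The order depends on the length chosen. With the longest transcript, *Osmr* was at 14.5 RPKM in TranspCtrl and took the third place, and with the length given in the count table *Il6st* was ahead of *Socs3* in both groups.

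The balance between chains that share a partner was examined as the ratio of their RPKM within each sample, a choice made after the single genes had been seen. *Lifr* to *Osmr*, the chains that direct gp130 to LIF or to OSM, stood at 0.718, 1.06 and 1.16 in TranspCtrl replicates 1 to 3 and at 1.84, 2.02 and 2.3 in TranspExer replicates 1 to 3. All 3 TranspExer ratios were higher than all TranspCtrl ratios, with means of 2.05 ± 0.232 (SD, n = 3) and 0.981 ± 0.232 (SD, n = 3). *Il6ra* to *Il6st* stood at 0.287, 0.305 and 0.285 in TranspCtrl and at 0.438, 0.41 and 0.368 in TranspExer. *Osmr* to *Il6st* was 0.287 ± 0.0144 (SD, n = 3) in TranspCtrl and 0.227 ± 0.0219 (SD, n = 3) in TranspExer, and it was lower in all 3 TranspExer samples. *Lifr* to *Il6st* was 0.198, 0.322 and 0.328 in TranspCtrl and 0.461, 0.448 and 0.478 in TranspExer, with TranspCtrl replicate 1 again the lowest. Each of the 4 ratios separated the groups, and each had p = 0.1 in the exact two-sided permutation test, the smallest p-value that this design can give. Each ratio holds *Osmr* or *Il6st*, which separated the groups on their own, as did 52.4% of all tested genes. The ratios are therefore not independent of each other or of these genes, and the test gives no further support. The length chosen rescales a ratio equally in every sample and leaves this separation as it is.

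**Figure D3:**
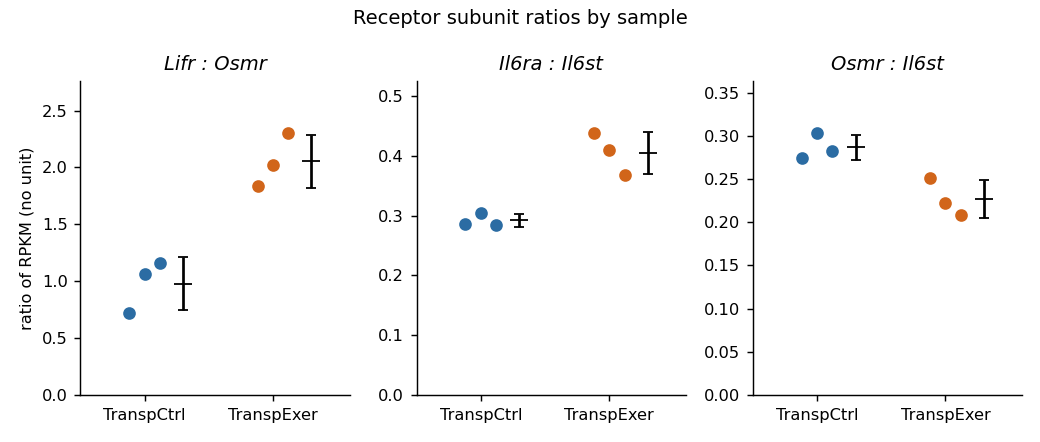
Ratio of RPKM (union of exons, no unit, linear axes from 0) of 2 receptor chains within each TranspCtrl and TranspExer sample, where points are samples and bars are the mean ± SD. The groups are separate in each panel, with *Lifr* to *Osmr* between 0.718 and 1.16 in TranspCtrl and between 1.84 and 2.3 in TranspExer.

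Of the 12 other ligands and receptors of the family, 6 passed the low-count filter, and 1 of them rose at the adjusted p-value threshold, a share of 16.7% where 32.2% of all tested genes passed. The gene that rose was *Il11ra1*, which encodes the IL-11 binding chain. It was at 29.1, 29.5 and 33.6 CPM in TranspCtrl replicates 1 to 3 and at 58.2, 57.0 and 57.6 CPM in TranspExer replicates 1 to 3. The mean was 30.7 ± 2.47 CPM in TranspCtrl against 57.6 ± 0.579 CPM in TranspExer (± SD, n = 3 each), and the log2 fold change was 0.91 ± 0.08 (SE, edgeR adjusted p = 0.000233), so the chain rose while its ligand was near the floor in both groups. *Il11ra2*, a near-identical copy, had 0 counts in every sample, and the assignment of reads between the copies is uncertain. *Ebi3*, which encodes a soluble chain of IL-27, showed a log2 fold change of 0.28 (edgeR adjusted p = 0.0733). *Cntfr*, the alpha chain that CLCF1 needs, had 4 to 13 counts in TranspCtrl and 1 to 8 in TranspExer and was below the filter, and it is named after its values were seen. The median log2 fold change over the 6 genes was 0.07.

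In the shared signalling path, of 16 genes for JAK kinases, STAT factors, phosphatases and adaptors, 2 rose and 1 fell, a share of 18.8% that was below the 32.2% of all tested genes, and their median log2 fold change was 0.09. *Grb2*, the adaptor that links the receptor to the RAS and ERK path, went from 163.9 to 265.9 CPM (log2 fold change 0.70, edgeR adjusted p = 0.00404). *Jak2*, a kinase bound by gp130, went from 103 to 79.3 CPM (-0.38, adjusted p = 0.0107), and the third gene that passed, *Stat5b*, rose by 0.30 (adjusted p = 0.0236) and is named after its value was seen. *Jak1*, the main kinase of gp130, showed a log2 fold change of 0.09 (adjusted p = 0.413) and *Stat3* one of -0.12 (adjusted p = 0.257).

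Among the 7 other genes of the SOCS family, which encode inhibitors of cytokine receptors, 2 fell, a share of 28.6% where 32.2% of all tested genes passed in either direction. These were *Socs2* (log2 fold change -0.46, edgeR adjusted p = 0.0186) and *Cish* (-0.72, adjusted p = 0.0252), which are known as targets of STAT5. Both calls were lost without TranspExer replicate 2 or 3 or TranspCtrl replicate 3, and that of *Socs2* also without TranspExer replicate 1 and that of *Cish* without TranspCtrl replicate 2. Their largest adjusted p-values were 0.0676 for *Socs2* and 0.0905 for *Cish*. The median log2 fold change of the 7 genes was 0.07.

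Genes known to respond to STAT3 moved in both directions. Of 28 listed, 27 were found and 25 tested, of which 7 rose and 8 fell, a share of 60.0% against 32.2% of all tested genes, with a median log2 fold change of -0.09. The acute-phase and secreted products were mostly lower, with 7 lower and 3 higher of 11 tested and a median of -0.47. Of 10 transcription factor genes, *Fos* and *Bcl6* rose and *Hif1a* fell, and of 4 survival and cell cycle genes *Bcl2l1* and *Ccnd1* rose, all named after their values were seen. Past both thresholds, *Lrg1*, which encodes a secreted glycoprotein known from liver and neutrophils, rose, and *Saa3* and *A2m* fell. Without TranspCtrl replicate 1, or without TranspExer replicate 2 or 3, 1 gene of the list passed both thresholds. *Lrg1* was at 11.4, 19.8 and 21.02 CPM in TranspCtrl and at 33.6, 35.8 and 35.7 CPM in TranspExer, and the log2 fold change was 1.01 ± 0.20 (SE, edgeR adjusted p = 0.00802). TranspCtrl replicate 1 was the lowest, and the groups were separate. The adjusted p-value of *Lrg1* stayed under 0.05 with each sample left out, but the fold was under 2 without TranspCtrl replicate 1 (log2 fold change 0.777), without TranspExer replicate 2 or 3 (0.986 and 0.984), with upper-quartile scaling (0.937), with library size alone (0.93), without the low-count filter (0.997) and with a filter of 1 CPM in 3 samples (0.984).

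*Saa3*, an acute-phase gene known from macrophages, adipocytes and stromal cells, was at 41.3, 18.1 and 20.4 CPM in TranspCtrl and at 14.4, 11.5 and 11.4 CPM in TranspExer, and the log2 fold change was -1.10 ± 0.30 (SE, edgeR adjusted p = 0.0269). TranspCtrl replicate 1 was far above its group, and the call was lost without TranspExer replicate 1, 2 or 3, where the adjusted p-value was 0.0661, 0.0958 and 0.105. Without TranspCtrl replicate 1, *Saa3* had a log2 fold change of -0.635 (edgeR adjusted p = 0.000808) and no longer passed the fold threshold. *A2m*, which encodes a protease inhibitor of plasma, had 32, 20 and 25 counts in TranspCtrl and 1, 0 and 1 counts in TranspExer (edgeR adjusted p = 0.000618). With 77 counts against 2 in all, the ratio scaled for library size was 35.4, with a 95% counting interval of 9.46 to 297.

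**Figure D4:**
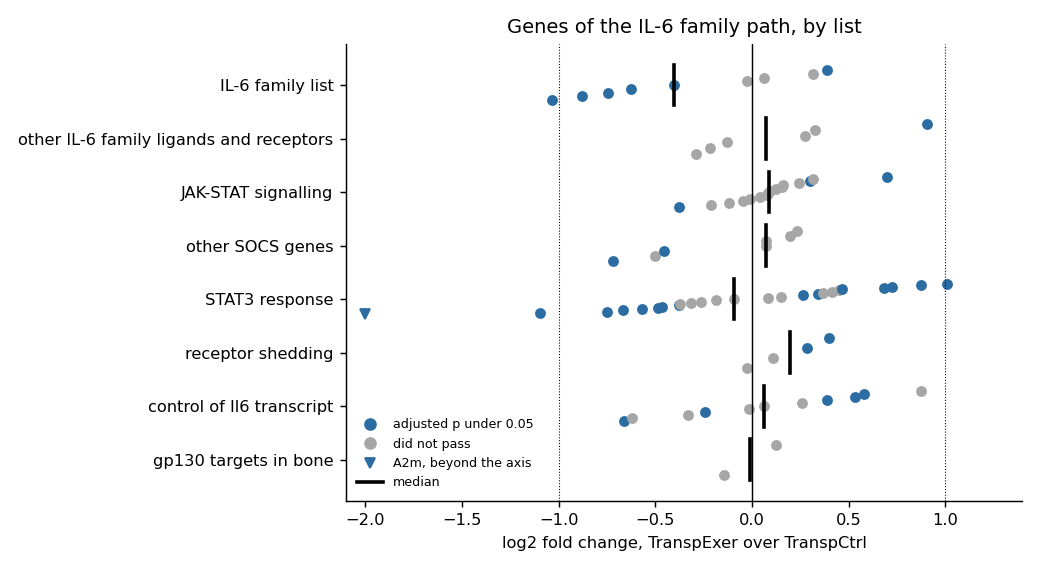
Log2 fold change (TranspExer over TranspCtrl, linear axis) of every tested gene in the IL-6 family list and in each list of the surrounding path, where points are genes, blue points have an adjusted p-value under 0.05 in edgeR, grey points do not, the bar is the median of the list and the triangle marks *A2m* at -4.91, beyond the axis. The family median is at -0.40 and the other medians lie between -0.09 and 0.20.

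Of the 4 genes for shedding of IL-6 family receptors, 2 rose, where 16.6% of all tested genes rose and 32.2% passed in either direction, with a median log2 fold change of 0.20. *Adam10*, a membrane protease that cuts IL6RA, rose by 0.40 (edgeR adjusted p = 0.0186), and *Rhbdf2*, which encodes a cofactor of ADAM17, rose by 0.29 (adjusted p = 0.0195). The adjusted p-value of *Adam10* was 0.0544 to 0.0699 when any of the TranspExer samples was left out. The call of *Rhbdf2* was lost under both other scalings, without the low-count filter, and without TranspCtrl replicate 3 or any of the TranspExer samples, where the adjusted p-value reached 0.0965.

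Of 11 genes that control the *Il6* transcript, 3 rose and 2 fell, a share of 45.5% against 32.2% of all tested genes, with a median log2 fold change of 0.06. *Zfp36*, whose product binds AU-rich elements and destabilises cytokine transcripts, went from 93.0 to 134.8 CPM (log2 fold change 0.54, edgeR adjusted p = 0.0028). *Arid5a*, whose product stabilises *Il6* mRNA, went from 27.3 to 17.2 CPM (-0.66, adjusted p = 0.00402). The others that passed were *Zc3h12a*, *Rela* and *Nfkb2*, all 3 named after their values were seen. *Zc3h12a* (0.39, edgeR adjusted p = 0.0126) encodes an RNase that degrades *Il6* mRNA. *Rela* (0.58, adjusted p = 0.0401) and *Nfkb2* (-0.24, adjusted p = 0.0378), both subunits of NF-kB, passed near the threshold. *Rela* was at 56.0, 93.4 and 90.0 CPM in TranspCtrl replicates 1 to 3 and at 112.0, 119.7 and 126.2 CPM in TranspExer replicates 1 to 3, with TranspCtrl replicate 1 well below the others. Of the 3 bone genes regulated through gp130, *Tnfsf11*, the gene of the osteoclast cytokine RANKL, showed a log2 fold change of -0.14 (edgeR adjusted p = 0.506) and its decoy receptor gene *Tnfrsf11b* one of 0.12 (adjusted p = 0.252). *Sost*, a marker of osteocytes, had 0 counts in every sample.

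**Figure D5:**
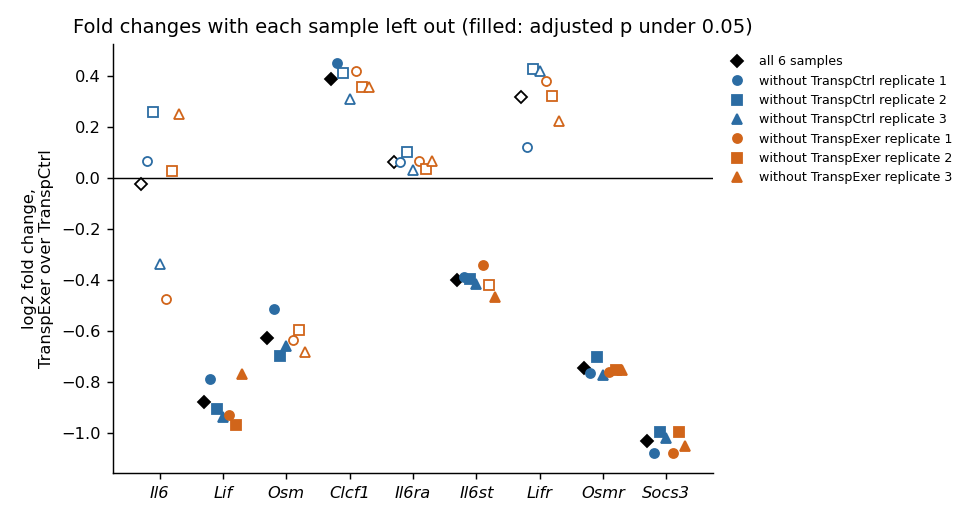
Log2 fold change (TranspExer over TranspCtrl, linear axis, edgeR) of the tested IL-6 family genes with all samples and with each of the 6 samples left out in turn, where each point is a fit, its colour and shape name the sample left out, and filled points have an adjusted p-value under 0.05. *Socs3* lies between -1.08 and -0.997, *Osmr* between -0.772 and -0.701, and *Il6* moves most, between -0.473 and 0.258.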

How the data were processed

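BM MSC transcripts were compared between 3 TranspCtrl and 3 TranspExer samples, which were grouped by their labels. For every gene and sample, the authors deposited an expected count without normalization, and 26.8% to 30.7% of the values above 0 in a sample were not whole (tolerance 1e-06). The submitters' processing notes name the mm10 build. The aligner and counting tool are not given in the sources used here, so the assignment of reads that fit several genes is unknown. The values were rounded, filtered with filterByExpr, TMM-normalized and tested with edgeR 4.0.16 (quasi-likelihood, condition only) in R 4.3.3. The thresholds of 0.05 for the adjusted p-value and 2 for the fold were those of the study. Standard errors were the absolute log2 fold change over the root of F. CPM used TMM-scaled library sizes. Exon lengths and loci came from GENCODE M21 (GRCm38), and promoter sequences from RefSeq (GRCm38.p6).

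The family genes and the gene lists were chosen with earlier results of these data known. The genes named are all family genes and, in each other list, up to 4 in each direction with the smallest adjusted p-value past both thresholds or, where none passed both, up to 2 with the smallest adjusted p-value, and *Il11ra1*, *Jak1*, *Jak2* and *Stat3* in any case. All other genes were named after their values were seen. The alternatives were DESeq2 1.42.0, other scalings and filters, the replicate block, the fold tested in the model and each sample left out. Some listed genes are not reported here by name.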

Additional observations from a re-analysis of the deposited data

How the results depend on the processing

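With 3 samples a group, the calls near the threshold depended on single samples. Leaving out each sample in turn gave 3 to 5 lower (3 without TranspExer replicate 2) and 0 to 1 higher family genes past the adjusted p-value (edgeR, 5 and 1 with all samples), 0 to 1 past both thresholds, 1 to 3 STAT3 response genes and 0 to 1 genes that control *Il6* (1 without TranspCtrl replicate 2 or 3) past both thresholds. The log2 fold change then ranged from -0.699 to -0.514 for *Osm*, from 0.308 to 0.448 for *Clcf1* and from -0.469 to -0.343 for *Il6st*. With upper-quartile scaling and with library size alone, *Clcf1* was at 0.305 and 0.297 and 0 higher genes were left. Testing the fold of 2 in the model, a stricter hypothesis by construction, left 412 genes of the whole table (138 higher, 274 lower), 0 family genes in either direction and 1 STAT3 response gene, with the estimates of *Lif*, *Osm*, *Clcf1*, *Il6st*, *Osmr* and *Socs3* as they were, at -0.878, -0.628, 0.386, -0.401, -0.747 and -1.03. DESeq2, the other filters and the replicate block kept the side of the threshold of every family gene tested. Same-numbered samples did not deviate together (correlations of 0.025, -0.00174 and 0.0419, and not every sample correlated best with its own number), so the labels give no pairing. With the replicate block, 519 genes were higher and 766 lower past both thresholds. No call was reversed, and the estimates of *Il6* and *Il6ra*, which did not pass, took either sign. At 6 to 15 counts per sample, depth limits what can be said of *Il6*.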
